A study of Mus musculus with 24 samples.

Results

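Mouse prostate organoids labelled KO for Brca1 (Brca1-/-) were compared with organoids labelled HET (Brca1+/-) while both grew with dihydrotestosterone (DHT), a potent androgen. The 6 libraries, 3 for each label, were picked by their titles from the 24 in the series. Of 35519 genes with a transcript in the files, 15427 had enough reads to be tested. All organoids were started from anterior prostate lobes of mice aged 3 months, as single cells in Matrigel. Their medium held EGF, Noggin, R-Spondin, N-acetylcysteine, B27, the TGF-beta receptor inhibitor A83-01 and the kinase inhibitor Y27632, so both groups shared all of these beside DHT. KO-labelled and HET-labelled organoids without DHT, with 3 libraries each, and WT-labelled organoids with DHT, also 3, are given beside the comparison. The dose of DHT, the exons deleted, the promoter or Cre behind the deletion and the number of organoid lines per label are not given in the sources used here. The comparison sets organoids labelled for loss of both alleles of Brca1 against those labelled for loss of 1 allele, when androgen is present. With the number of lines unknown, differences of Brca1 alleles cannot be told apart from differences between lines or animals.

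BRCA1, with its partner BARD1, directs the repair of DNA double-strand breaks by homologous recombination and protects stalled replication forks. Prostate epithelium holds luminal cells, which depend on androgen and secrete, and basal cells, which express p63 and anchor to the matrix. Organoids grown in EGF and R-Spondin keep both cell types dividing in culture.

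With DHT, the KO-labelled libraries held 44483011, 41800261 and 47622489 estimated reads, and the HET-labelled ones held 42126931, 37850939 and 42693382. Mitochondrial genes took 4.75%, 4.08% and 3.02% of reads in KO-labelled and 2.88%, 2.22% and 4.58% in HET-labelled libraries, so the groups overlapped. The defining prostate epithelial markers were read in all 6 libraries, and 0 of 11 were called different by edgeR, with 0 at an unadjusted p under 0.05 and 0 by DESeq2, where 3.54% of all genes tested were called. Epcam, a surface marker of epithelium, stood at 1395, 1330 and 1324 counts-per-million (CPM) in KO-labelled and 1661, 1443 and 1685 CPM in HET-labelled libraries. Trp63, which encodes p63, stood at 147, 124 and 118 CPM in KO-labelled and 104, 90.8 and 121 CPM in HET-labelled libraries. Whether the replicates are different mice or different cultures is not stated in the labels, so p-values reflect just the variation among these libraries, which may be technical. All tests are edgeR quasi-likelihood tests on 18 organoid libraries, with p-values adjusted over 15427 genes by the Benjamini-Hochberg method. A gene is said to be called when its adjusted p is below 0.05.

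Brca1 itself (GRCm38 chr11:101488764-101551955, minus strand) had 11.8, 9.64 and 11.2 CPM in KO-labelled libraries and 17.8, 14.7 and 18 CPM in HET-labelled libraries. It was lower in KO-labelled organoids in all 3 libraries (log2 -0.63, SE 0.127, edgeR adjusted p = 0.0101), but RNA was still read in every KO-labelled library. WT-labelled libraries had 13.6, 13.2 and 14.3 CPM, and neither KO minus WT (log2 -0.34, adjusted p = 0.22) nor HET minus WT (log2 0.30, adjusted p = 0.211) was called. The level of Brca1 RNA was highest in HET-labelled, then WT-labelled, then KO-labelled libraries, which is not the order of the alleles the labels give, so the groups are named by their labels throughout. The call on Brca1 ended without KO-labelled replicate 2 or HET-labelled replicate 3 (highest adjusted p 0.062). Within 10 Mb of Brca1, 278 genes were tested and 7 were called, 4 higher and 3 lower in KO-labelled organoids. That share of 2.52% compares with 3.54% of all genes tested.

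The difference between the labels reached 546 genes, which is 3.54% of those tested. In KO-labelled organoids 276 were higher (1.79% of genes tested) and 270 were lower (1.75%). Most were modest in size, with a median absolute log2 change of 0.78, and 201 passed a change of 2-fold, of which 110 were higher and 91 were lower. In all 546 the KO-labelled libraries stood wholly above or wholly below the HET-labelled ones, as they did in 31.1% of all genes tested. Protein-coding genes made up 510 of the calls, 263 higher and 247 lower. The calls lay on every autosome and on X, from 1.44% of genes tested on chromosome 8 to 5.26% on chromosome 4. The count changed with the libraries fitted, and was 1238 with the compared groups alone. It was 246, 328 and 267 without KO-labelled replicates 1, 2 and 3, and 316, 287 and 352 without HET-labelled replicates 1, 2 and 3, while DESeq2 called 994.

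The 12 largest rises in KO-labelled organoids began with Sparc, Vim, Gria3, Ncam1 and Dcn. They were picked among called genes that averaged 5 CPM or more in either label and did not overlap between the labels. Sparc (GRCm38 chr11:55394500-55423183, minus strand), which encodes a secreted protein that binds collagen and calcium, had 80.9, 84.4 and 86 CPM in KO-labelled libraries and 16.9, 18.4 and 17.1 CPM in HET-labelled libraries. The KO-labelled values lay within a narrow band far above the HET-labelled ones (log2 2.26, SE 0.0937, edgeR adjusted p = 6.65e-10). Vim, which encodes the intermediate filament vimentin, had 13.2, 16.1 and 17.2 CPM in KO-labelled and 4.09, 3.56 and 3.52 CPM in HET-labelled libraries (log2 2.06, SE 0.188, edgeR adjusted p = 8.72e-06). Dcn, the small matrix proteoglycan decorin, had 32.6, 37.9 and 27.5 CPM in KO-labelled and 9.76, 12.2 and 8.58 CPM in HET-labelled libraries (log2 1.69, SE 0.193, edgeR adjusted p = 9.54e-05). Cald1, the actin-binding protein caldesmon, had 126, 123 and 133 CPM in KO-labelled libraries, against 38, 44.4 and 71.1 CPM in HET-labelled ones. It was higher in KO-labelled organoids (log2 1.31, SE 0.228), although HET-labelled replicate 3 stood well above the other two.

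Genes of the cell surface and of junctions stood among the 12 as well. Gria3, a subunit of AMPA-type glutamate receptors, had 14.3, 12.2 and 11.5 CPM in KO-labelled and 3.16, 3.37 and 4.13 CPM in HET-labelled libraries (log2 1.83, SE 0.195). Ncam1, a homophilic adhesion molecule of the immunoglobulin family, had 8.3, 9.14 and 8.43 CPM in KO-labelled and 1.99, 2.86 and 2.48 CPM in HET-labelled libraries (log2 1.82, SE 0.172). Cldn1, a claudin of tight junctions, had 57.8, 53.3 and 53.2 CPM in KO-labelled libraries, against 23.1, 20.1 and 27.1 CPM in HET-labelled ones (log2 1.23, SE 0.194). In each of these the lowest KO-labelled library was above the highest HET-labelled one, which the rule that picked the 12 required. Dsc3, a desmosomal cadherin of stratified and basal epithelium, had 68.1, 57.1 and 55 CPM in KO-labelled and 27.1, 23.7 and 25.1 CPM in HET-labelled libraries (log2 1.25, SE 0.142). The other rises among the 12 largest were those of the semaphorin Sema6a (log2 1.24), the transmembrane gene Slitrk6 (1.35), the tetraspan gene Lhfpl2 (1.26) and Trim34b (1.32). Trim34b shares 71% of its 31-base words with its neighbour Trim34a, so reads may have been split between them. The call on Sema6a ended without KO-labelled replicate 1 or HET-labelled replicate 1, 2 or 3 (highest adjusted p 0.102) and with offsets for transcript length, and that on Slitrk6 ended without KO-labelled replicate 1, 2 or 3 or HET-labelled replicate 1, 2 or 3 (highest adjusted p 0.138). In bulk libraries such as these, fewer cells of a type and less RNA per cell cannot be told apart.

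**Figure D1:**
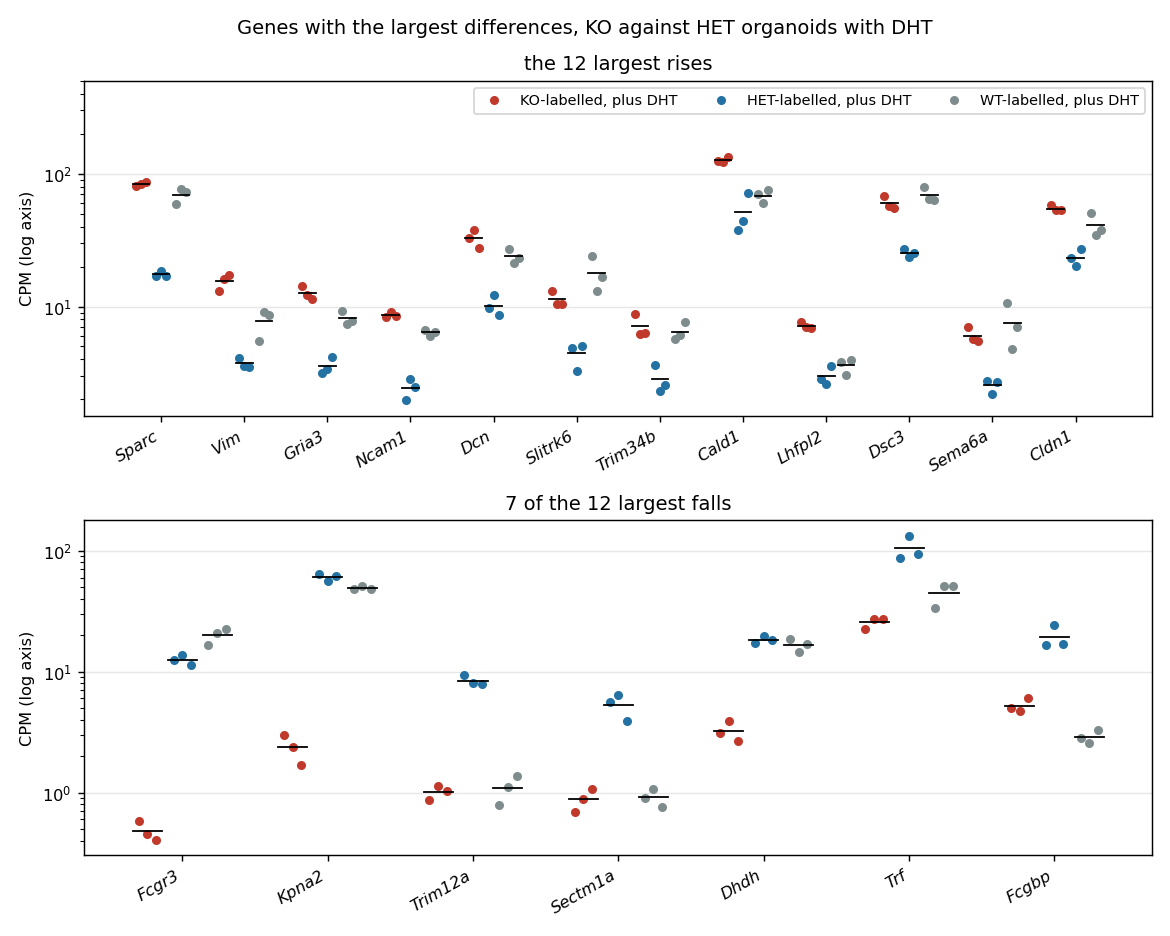
Level of the 12 genes with the largest rises (top) and of 7 of the 12 with the largest falls (bottom) in organoids with DHT, in counts-per-million on a log axis. Each point is a library, KO-labelled left, HET-labelled middle and WT-labelled right, and each line is the mean of 3 libraries; Sparc stands above 80 CPM in every KO-labelled library and below 19 CPM in every HET-labelled one.

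The largest falls in KO-labelled organoids included a nuclear import factor, an Fc receptor and an iron carrier. Kpna2 (GRCm38 chr11:106988629-106999541, minus strand), which encodes an importin alpha that carries proteins into the nucleus, had 3, 2.38 and 1.7 CPM in KO-labelled libraries, against 64.1, 55.8 and 62.1 CPM in HET-labelled ones (log2 -4.69, SE 0.172, edgeR adjusted p = 2.49e-10). Fcgr3, a receptor for the Fc part of immunoglobulin G best known on leukocytes, had 0.587, 0.452 and 0.404 CPM in KO-labelled libraries, against 12.4, 13.6 and 11.4 CPM in HET-labelled ones (log2 -4.69, SE 0.211, edgeR adjusted p = 1.78e-09). In WT-labelled libraries Kpna2 had 48, 51.5 and 48.3 CPM and Fcgr3 had 16.7, 21 and 22.5 CPM, and for both the KO-labelled values were below those of both other labels, although Kpna2 shares reads with a near copy, described below. Dhdh, a dihydrodiol dehydrogenase, showed the same order, with 3.09, 3.93 and 2.69 CPM in KO-labelled, 17.3, 19.7 and 18.1 CPM in HET-labelled and 18.8, 14.5 and 16.8 CPM in WT-labelled libraries.

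In other falls the HET-labelled organoids stood apart from both other labels. Trim12a, a tripartite motif gene, had 0.87, 1.14 and 1.03 CPM in KO-labelled libraries, 9.36, 8.03 and 7.85 CPM in HET-labelled ones and 0.788, 1.12 and 1.36 CPM in WT-labelled ones. Sectm1a, named for a secreted and transmembrane product, had 0.696, 0.88 and 1.07 CPM in KO-labelled libraries, 5.59, 6.37 and 3.89 CPM in HET-labelled ones and 0.9, 1.07 and 0.766 CPM in WT-labelled ones. The changes of KO minus HET were -3.05 for Trim12a and -2.58 for Sectm1a on the log2 scale, with SE of 0.259 and 0.338. Trf, which encodes the iron carrier transferrin, had 22.5, 27.1 and 27.1 CPM in KO-labelled and 87.4, 133 and 93.9 CPM in HET-labelled libraries (log2 -2.04, SE 0.252, edgeR adjusted p = 2.07e-04), with 33.4, 50.6 and 51.1 CPM in WT-labelled ones. Fcgbp, a mucus protein that binds immunoglobulin G, had 4.98, 4.69 and 6.02 CPM in KO-labelled and 16.5, 24.2 and 17 CPM in HET-labelled libraries (log2 -1.88, SE 0.306), with 2.81, 2.56 and 3.3 CPM in WT-labelled ones, a call that was lost with offsets for transcript length.

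Several of the very large changes were in genes with a near-identical copy elsewhere, where estimated reads can be split between the copies. Of 37 called genes past a log2 change of 4 in size, 23 shared at least 50% of their 31-base words with another gene, against 10.51% of all genes tested. Ftl2-ps, a pseudogene of the ferritin light chain, had 0 reads in all 3 KO-labelled libraries and 164, 204 and 148 CPM in HET-labelled ones. Set against a floor of 3 counts per library, it was at least 2612-fold lower in KO-labelled organoids. Ftl1-ps1 had 2.67, 2.48 and 3.96 CPM in KO-labelled and 585, 688 and 564 CPM in HET-labelled libraries, whereas its parent Ftl1 had 854, 1039 and 1090 CPM in KO-labelled and 536, 673 and 554 CPM in HET-labelled ones. Summed over Ftl1 and its 3 copies, the family averaged 997 CPM in KO-labelled and 1404 CPM in HET-labelled libraries, a ratio of 0.711.

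The enolase and importin copies gave the same picture, and the Xlr3 copies did not. Eno1b, a copy of the glycolytic enolase gene Eno1, had 4.35, 8.64 and 2.73 CPM in KO-labelled and 592, 687 and 576 CPM in HET-labelled libraries, but Eno1 with its copies averaged 1474 CPM in KO-labelled and 1680 CPM in HET-labelled libraries, a ratio of 0.877. Kpna2 shares 92.7% of its 31-base words with the predicted gene Gm10184, which had 99.1, 90.5 and 95.2 CPM in KO-labelled and 72.1, 66.8 and 53.2 CPM in HET-labelled libraries. Together the pair averaged 97.3 CPM in KO-labelled and 125 CPM in HET-labelled libraries, a ratio of 0.78, and 102 CPM in WT-labelled ones, so the fall in Kpna2 and its order among the labels are uncertain. Xlr3b, an X-linked lymphocyte-regulated gene, had 0.0652, 0.0476 and 0.0404 CPM in KO-labelled and 14.9, 13.6 and 11.9 CPM in HET-labelled libraries, and there its near copy Xlr3a was also lower, with 1.35, 1.17 and 1.05 CPM in KO-labelled and 3.44, 3.69 and 4.25 CPM in HET-labelled libraries. Summed, the Xlr3 pair averaged 1.24 CPM in KO-labelled and 17.3 CPM in HET-labelled libraries, a ratio of 0.0718. Some copies were higher in KO-labelled libraries. Gm7049, a copy of Me1, averaged 26.55 CPM there against 0.0916 CPM in HET-labelled ones, with a summed ratio of 1.07. Gm11868, a copy of Cyb5r4, averaged 14.82 against 0.0078 CPM, with a summed ratio of 0.807. WT-labelled libraries had the ferritin copies at levels like the HET-labelled ones, with 344, 542 and 479 CPM of Ftl1-ps1, but had 6.41, 5.92 and 3.28 CPM of Eno1b and 0.113, 0.0932 and 0.468 CPM of Xlr3b.

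**Figure D2:**
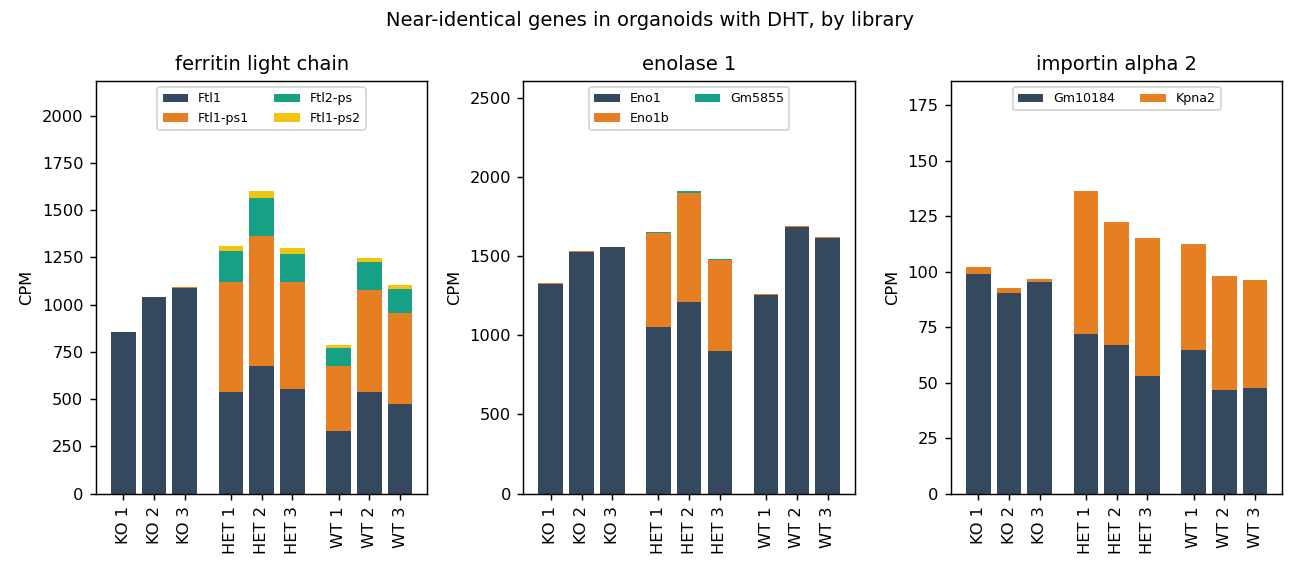
Level of near-identical genes in each library of organoids with DHT, stacked in counts-per-million, for the ferritin light chain family (left), enolase 1 (middle) and importin alpha 2 (right). KO-labelled libraries hold nearly all ferritin reads in Ftl1 and nearly all importin reads in Gm10184, while the summed bars differ much less than the single copies.

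Many genes that run mitosis were lower in KO-labelled than in HET-labelled organoids. Of 42 tested members, 20 were lower and 0 were higher, with a median log2 change of -0.57, against 0.01 for all genes. All 42 had a change below 0, 37 of them with an unadjusted p under 0.05, and DESeq2 called 26 lower and 0 higher. Over all genes tested, 1.75% were called lower and 1.79% higher. Aurka, the kinase that matures the spindle poles, had 23.2, 22.6 and 22.8 CPM in KO-labelled and 37.7, 38.1 and 37.7 CPM in HET-labelled libraries (log2 -0.73, SE 0.0819, edgeR adjusted p = 8.54e-05). Nek2, a centrosome kinase, had 19.3, 21.6 and 22.6 CPM in KO-labelled and 37, 35.5 and 32.5 CPM in HET-labelled libraries (log2 -0.72, SE 0.0876). The motor protein of cytokinesis Kif20a had 45.4, 42.4 and 41.6 CPM in KO-labelled libraries, against 67.2, 65.7 and 61.5 CPM in HET-labelled ones (log2 -0.59, SE 0.078). For these 3 genes the replicates differed little within a label. The labels did not overlap, as was so for all 546 calls. Bub1b, a spindle checkpoint kinase, had 47.5, 45.5 and 49.6 CPM in KO-labelled libraries and 71.8, 68.7 and 65.2 CPM in HET-labelled ones (log2 -0.53, SE 0.0724).

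Other called members were the master mitotic kinase Cdk1 (log2 -0.57), its cyclins Ccnb1 (-0.59) and Ccnb2 (-0.62), the kinases Plk1 (-0.61) and Aurkb (-0.76), and the transcription factor Foxm1 (-0.61). The proliferation marker Mki67 (log2 -0.58, adjusted p = 0.186) and the topoisomerase Top2a (log2 -0.54, adjusted p = 0.0534) did not pass. Summed over the list, KO-labelled libraries held 2424, 2304 and 2261 CPM and HET-labelled libraries held 3588, 3231 and 3377 CPM. Every HET-labelled sum was above every KO-labelled one. WT-labelled libraries held 2111, 2092 and 1936 CPM, closer to the KO-labelled sums. The count of 20 was 12 without KO-labelled or HET-labelled replicate 1 and 13 without KO-labelled or HET-labelled replicate 2.

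Many mitotic genes carry the word TTTGAA, called the cell cycle genes homology region, near their start, through which the DREAM complex is known to act. It was searched on both strands in RefSeq windows of GRCm38.p6 that run from 250 bases before to 50 bases after each start. It was found in 10 of the 15 lower members with a window (66.7%), in 15 of 20 other members (75%) and in 15.1% of the 11005 tested genes with a window. The share in the members that were called was thus no higher than in the rest of the list. Stretches before the start of 4 lower members are shown because they let the word be seen in place, with its letters in capitals. They lie at chr10:69352913-69352952 (minus strand) for Cdk1, chr2:164769875-164769928 (plus strand) for Ube2c, chr6:125191679-125191734 (minus strand) for Ncapd2 and chr4:117178845-117178900 (minus strand) for Kif2c, and each is read along its gene.
Cdk1: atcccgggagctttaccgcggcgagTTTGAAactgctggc
Ube2c: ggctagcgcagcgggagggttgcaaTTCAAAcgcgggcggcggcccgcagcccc
Ncapd2: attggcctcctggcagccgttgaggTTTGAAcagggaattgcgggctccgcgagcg
Kif2c: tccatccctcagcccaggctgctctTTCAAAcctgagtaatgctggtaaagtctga

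Part of the genes of DNA replication were lower in KO-labelled organoids too. Of 47 tested members of the S phase list, 15 were lower and 0 were higher, where 1.75% of all genes tested were called lower, with a median log2 change of -0.45. E2f8, a repressor of the E2F family, was the only member with a change above 0 (log2 0.08), and DESeq2 called 23 lower and 0 higher. Orc1, the largest subunit of the origin recognition complex, had 3.74, 3.69 and 4.12 CPM in KO-labelled and 7.42, 5.99 and 8 CPM in HET-labelled libraries (log2 -0.89, SE 0.149, edgeR adjusted p = 0.003). Mcm6, a subunit of the replicative helicase, had 33.9, 27.2 and 32.2 CPM in KO-labelled and 49.7, 44.9 and 49.1 CPM in HET-labelled libraries (log2 -0.62, SE 0.112). Uhrf1, which maintains DNA methylation after replication, had 31.3, 29.3 and 32.1 CPM in KO-labelled libraries, against 51.8, 48.1 and 47 CPM in HET-labelled ones (log2 -0.66, SE 0.0946). In all 3 genes the highest KO-labelled library was below the lowest HET-labelled one, and none of the 546 calls overlapped between the labels. The DNA ligase Lig1 (log2 -0.51, SE 0.0688), the licensing factor Cdc6 (log2 -0.85), the helicase subunits Mcm3 (-0.64), Mcm4 (-0.42) and Mcm5 (-0.86), and the sliding clamp Pcna (-0.41) were also called. The E-type cyclins Ccne1 (log2 -0.04) and Ccne2 (-0.15), which start S phase, did not pass.

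Summed over the S phase list, KO-labelled libraries held 914, 855 and 914 CPM, HET-labelled ones 1236, 1154 and 1169 CPM and WT-labelled ones 872, 932 and 929 CPM. The KO-labelled and WT-labelled sums overlapped, and the HET-labelled sums were above both. The count of 15 was 7, 6 and 8 without KO-labelled replicates 1, 2 and 3, and 6, 8 and 9 without HET-labelled replicates 1, 2 and 3. With offsets for transcript length, or with no filter on low counts, 8 were called, and the call on Lig1 was lost with the offsets.

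E2F factors drive replication genes through words such as TTTCCCGC, TTTGGCGC and TTTCGCGC, which were searched together on both strands of the same windows and can overlap one another. At least 1 was found in 8 of the 14 lower members with a window (57.1%), in 9 of 23 other members (39.1%) and in 3.76% of tested genes with a window. The stretches of 4 lower members with the word in capitals lie at chr4:108579402-108579453 (plus strand) for Orc1, chr1:128359720-128359777 (minus strand) for Mcm6, chr11:98907988-98908045 (plus strand) for Cdc6 and chr17:56304103-56304160 (plus strand) for Uhrf1. They are shown to set the word beside the genes whose levels are given above.
Orc1: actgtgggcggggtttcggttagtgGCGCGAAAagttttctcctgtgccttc
Mcm6: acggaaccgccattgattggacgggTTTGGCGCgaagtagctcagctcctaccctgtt
Cdc6: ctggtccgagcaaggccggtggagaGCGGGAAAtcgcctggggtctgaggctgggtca
Uhrf1: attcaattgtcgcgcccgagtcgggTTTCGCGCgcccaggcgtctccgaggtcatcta

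**Figure D3:**
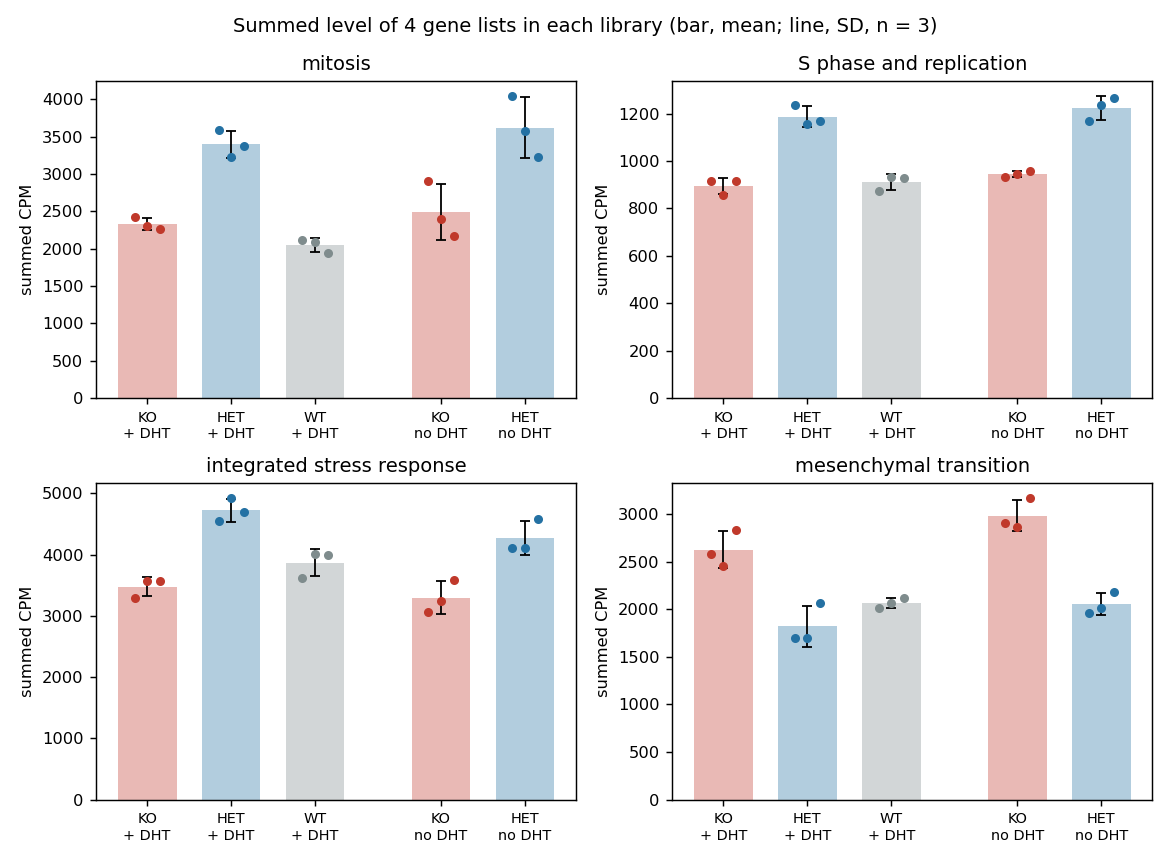
Summed level of 4 gene lists in each library, in counts-per-million, with DHT for all 3 labels and without DHT for the KO and HET labels. Bars are means of 3 libraries, lines are SD and points are libraries; the HET-labelled sums for mitosis, S phase and the integrated stress response stand above the KO-labelled ones in both media, and the reverse holds for the mesenchymal list.

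DNA repair genes beyond Brca1 held some lower members. In the homologous recombination and Fanconi list 3 of 33 tested members were lower and 0 were higher, where 1.75% of all genes tested were called lower. The change was below 0 in 27, and 12 were lower and 1 higher at an unadjusted p under 0.05, with a median log2 change of -0.28, and DESeq2 called 9 lower and 0 higher. KO minus WT gave 0 calls in this list (median log2 0.03), and HET minus WT gave 8 higher and 0 lower (0.31). Among all genes tested, 4.03% were called higher in HET minus WT. Summed, the list held 389.1, 384.8 and 386.5 CPM in KO-labelled libraries. It held 462.3, 445 and 445.1 CPM in HET-labelled and 377.1, 360.3 and 356.9 CPM in WT-labelled ones. Rad51ap1, which helps DNA strands pair in recombination, had 4.74, 3.9 and 4.45 CPM in KO-labelled and 8.31, 7.25 and 7.61 CPM in HET-labelled libraries (log2 -0.82, SE 0.156, edgeR adjusted p = 0.00705). Fancd2, the Fanconi protein activated at DNA crosslinks, had 6.83, 6.54 and 6.73 CPM in KO-labelled and 10.8, 9.95 and 8.24 CPM in HET-labelled libraries (log2 -0.53, SE 0.128), and the translocase Rad54b had 7.2, 5.85 and 6.04 CPM in KO-labelled and 10.4, 9.2 and 8.34 CPM in HET-labelled libraries (log2 -0.55, SE 0.138). The call on Rad51ap1 was lost with length offsets, that on Fancd2 without KO-labelled replicate 1, 2 or 3 or HET-labelled replicate 1 or 2 (highest adjusted p 0.156), and that on Rad54b without 10 of the 18 organoid libraries in turn, 6 of them among the 6 compared (highest adjusted p 0.175), and those on Fancd2 and Rad54b also with no low-count filter. Brca1 was the 1 call of 14 genes for BRCA1 and its partners in both tools, and Bard1 had a log2 change of -0.43 (adjusted p = 0.254). End joining gave 0 calls among 20 members with edgeR, 2 at an unadjusted p under 0.05 and 1 by DESeq2, with Lig3 at log2 0.12 (SE 0.0733) and Trp53bp1, which shields broken ends from resection, at 0.10 (SE 0.0908).

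The p53 list held genes that p53 induces and Trp53, the p53 gene itself. Of its 32 tested members 1 was higher and 1 was lower, where 1.79% of all genes tested were called higher and 1.75% lower. The median log2 change of the list was 0.03. The change was above 0 in 22 and below 0 in 10, and at an unadjusted p under 0.05 8 were higher and 2 lower. Ak1, an adenylate kinase, had 43.6, 45.3 and 44.6 CPM in KO-labelled and 21, 21.6 and 22.2 CPM in HET-labelled libraries (log2 1.04, SE 0.139, edgeR adjusted p = 4.27e-04). Plk3, a stress-responsive polo-like kinase, had 16.1, 16.9 and 18.8 CPM in KO-labelled and 25.8, 28.8 and 27.3 CPM in HET-labelled libraries (log2 -0.66, SE 0.169), a call that ended without 10 of the 18 organoid libraries in turn, 6 of them among the 6 compared (highest adjusted p 0.171), under length offsets and with no low-count filter. Cell cycle inhibitors and G1 cyclins moved both ways. The D-type cyclin Ccnd2 had 579, 551 and 582 CPM in KO-labelled and 383, 376 and 437 CPM in HET-labelled libraries (log2 0.52, SE 0.0867), and the inhibitor Cdkn2b had 53.9, 57.9 and 61 CPM in KO-labelled and 39.5, 41.3 and 38.7 CPM in HET-labelled libraries (log2 0.53, SE 0.114). Cdkn2c, another inhibitor of CDK4 and CDK6 and an E2F target, had 8.26, 8.16 and 8.55 CPM in KO-labelled and 12.2, 12.6 and 11.4 CPM in HET-labelled libraries (log2 -0.54, SE 0.133). The call on Cdkn2b ended without KO-labelled replicate 2 or 3 or HET-labelled replicate 1 or 3 (highest adjusted p 0.0783), and that on Cdkn2c without KO-labelled replicate 1, 2 or 3 or HET-labelled replicate 1, 2 or 3 (highest adjusted p 0.149) and with no low-count filter.

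A subset of genes of the integrated stress response, in which ATF4 raises amino acid synthesis and transport when translation initiation is slowed, were lower in KO-labelled organoids. Of 35 tested members 10 were lower and 0 were higher, where 1.75% of all genes tested were called lower, with a median log2 change of -0.47, and all 35 had a change below 0, while DESeq2 called 17 lower and 0 higher. Asns, which makes asparagine, had 69.1, 73.9 and 81.3 CPM in KO-labelled libraries, against 135, 126 and 126 CPM in HET-labelled ones (log2 -0.79, SE 0.102, edgeR adjusted p = 3.30e-04). Ppp1r15a, which guides the phosphatase that restores eIF2 and translation, had 32, 37 and 35.2 CPM in KO-labelled and 50.9, 67.3 and 65.3 CPM in HET-labelled libraries (log2 -0.82, SE 0.125). Mthfd2, an enzyme of mitochondrial folate metabolism, had 38, 41.6 and 42.7 CPM in KO-labelled and 62, 61 and 69.9 CPM in HET-labelled libraries (log2 -0.66, SE 0.111). The labels did not overlap in any of these 3 genes, as in all 546 calls. The serine synthesis enzyme Psat1 (log2 -0.41, SE 0.0695) and the transcription factors Ddit3 (log2 -1.08), Atf3 (-0.77) and Atf4 (-0.42) were also called, as were Stc2 (-0.56), Aars (-0.39) and Cth (-0.69), while Trib3 (log2 -0.89, adjusted p = 0.0652) was not. Summed over the list, KO-labelled libraries held 3295, 3563 and 3569 CPM, HET-labelled ones 4542, 4928 and 4696 CPM and WT-labelled ones 3612, 4004 and 3990 CPM. The count of 10 was 6 without HET-labelled replicate 1 and 5 without each of the other 5 libraries compared.

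The word TGATGNAA, the core to which ATF4 binds with C/EBP factors, was found on either strand in 3 of 9 lower members with a window (33.3%), in 8 of 20 other members (40%) and in 2.97% of tested genes with a window. Asns and Atf3 carry it before their starts, at chr6:7693210-7693257 (minus strand) and chr1:191183411-191183468 (minus strand). The stretches are shown with the word, or its reverse complement, in capitals.
Asns: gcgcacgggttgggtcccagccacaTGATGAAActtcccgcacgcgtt
Atf3: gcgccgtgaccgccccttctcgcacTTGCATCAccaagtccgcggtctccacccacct

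The unfolded protein response of the endoplasmic reticulum gave 6 lower and 0 higher of 24 tested members. Over all genes tested, 1.75% were called lower. The list median was a log2 change of -0.27, and DESeq2 called 9 members lower and 0 higher. Hspa5, the main chaperone of that compartment, had 1187, 1392 and 1260 CPM in KO-labelled and 1810, 2011 and 1920 CPM in HET-labelled libraries (log2 -0.58, SE 0.132, edgeR adjusted p = 0.0212). Manf, a secreted stress factor, had 156, 171 and 168 CPM in KO-labelled and 213, 231 and 212 CPM in HET-labelled libraries (log2 -0.41, SE 0.0879). The foldase Pdia6 (log2 -0.34, SE 0.0733) and the stress-induced gene Creld2 (log2 -0.56, SE 0.131) were also lower, as were Herpud1 (log2 -0.50) and Edem1 (-0.27), which act in disposal of misfolded proteins, while the stress transcription factor Xbp1 (log2 -0.09, adjusted p = 0.704) did not pass. The call on Hspa5 ended without KO-labelled replicate 1 or 3 or HET-labelled replicate 2 or 3 (highest adjusted p 0.141), and that on Manf without KO-labelled replicate 1, 2 or 3 or HET-labelled replicate 2 (highest adjusted p 0.119). The call on Pdia6 ended without KO-labelled replicate 1 or 3 or HET-labelled replicate 1 or 2 (highest adjusted p 0.0999) and with no low-count filter, and that on Creld2 without KO-labelled replicate 1, 2 or 3 or HET-labelled replicate 1 or 2 (highest adjusted p 0.145).

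Some basal epithelial genes were higher and some luminal regulators were lower in KO-labelled than in HET-labelled organoids. Of 29 tested basal members 5 were higher and 0 were lower, where 1.79% of all genes tested were called higher. The list median was a log2 change of 0.20, and DESeq2 called 8 members higher and 0 lower. Besides Dsc3, the mucin-like glycoprotein Pdpn had 119, 112 and 119 CPM in KO-labelled and 66.7, 64.5 and 70.7 CPM in HET-labelled libraries (log2 0.79, SE 0.119, edgeR adjusted p = 0.00128). Dst, which ties keratin to hemidesmosomes, had 518, 516 and 529 CPM in KO-labelled and 372, 393 and 408 CPM in HET-labelled libraries (log2 0.41, SE 0.0805). The Notch ligand Jag1 (log2 0.53, SE 0.107) and the desmoglein Dsg3 (log2 0.47, SE 0.116) were the other 2. The lineage markers Trp63 (log2 0.30, adjusted p = 0.602), Krt5 (0.19, 0.746) and Krt14 (0.39, 0.431) did not pass. The count of 5 was 3 without KO-labelled replicate 1 or 3 or HET-labelled replicate 2. The call on Dst ended without KO-labelled replicate 3 (adjusted p 0.0563), that on Jag1 without KO-labelled replicate 1 or HET-labelled replicate 1 or 2 (highest adjusted p 0.0787) and under length offsets, and that on Dsg3 without 10 of the 18 organoid libraries in turn, 6 of them among the 6 compared (highest adjusted p 0.166).

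In the luminal list 4 of 24 tested members were lower and 0 were higher, where 1.75% of all genes tested were called lower. The list median was a log2 change of -0.17, and DESeq2 made the same counts. Gata2, a zinc finger transcription factor, had 3, 3.02 and 3.21 CPM in KO-labelled and 5.22, 6.15 and 5.98 CPM in HET-labelled libraries (log2 -0.91, SE 0.152, edgeR adjusted p = 0.00291). Elf3, an epithelial ETS factor, had 338, 449 and 384 CPM in KO-labelled and 526, 734 and 640.3 CPM in HET-labelled libraries (log2 -0.70, SE 0.168). Spdef, an ETS factor of secretory cells, had 4.11, 5.64 and 5.56 CPM in KO-labelled and 12.7, 16.1 and 11.7 CPM in HET-labelled libraries (log2 -1.40, SE 0.337), and the zinc finger factor Ovol1 had 9.26, 14.5 and 11.6 CPM in KO-labelled and 18.2, 22.5 and 19.1 CPM in HET-labelled libraries (log2 -0.76, SE 0.182). Gata2 kept its call without each library in turn, whereas that on Elf3 ended without KO-labelled replicate 1 or 3 or HET-labelled replicate 2 or 3 (highest adjusted p 0.171). The call on Spdef ended without KO-labelled replicate 1, 2 or 3 or HET-labelled replicate 1, 2 or 3 (highest adjusted p 0.155) and under length offsets, and that on Ovol1 without KO-labelled replicate 1 or 3 or HET-labelled replicate 1, 2 or 3 (highest adjusted p 0.16). The luminal keratins Krt8 (log2 -0.18, adjusted p = 0.705) and Krt18 (-0.21, 0.515) did not pass.

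Among markers of luminal progenitors, 1 of 22 was higher and 1 lower, where 1.79% of all genes tested were called higher and 1.75% lower. Wfdc18 had 19.5, 19.3 and 17.8 CPM in KO-labelled and 12.4, 11.2 and 9.87 CPM in HET-labelled libraries (log2 0.76, SE 0.153), and the surface antigen Psca had 174, 194 and 192 CPM in KO-labelled and 268, 311 and 264 CPM in HET-labelled libraries (log2 -0.59, SE 0.135). The call on Wfdc18 ended without HET-labelled replicate 3 (adjusted p 0.0549) and that on Psca without KO-labelled replicate 1, 2 or 3 or HET-labelled replicate 1 or 2 (highest adjusted p 0.128). Of 28 squamous genes 2 were higher, the protease inhibitor Serpinb2, with 19.8, 17.2 and 21.7 CPM in KO-labelled and 7.61, 6.82 and 10.8 CPM in HET-labelled libraries (log2 1.22, SE 0.202), and Sprr3, which stayed below 1 CPM in every library. Desmosome and tight junction genes gave 3 higher of 26, which were Dsc3, Cldn1 and Dsg3, and 1 lower, the plakophilin Pkp2 (log2 -0.34, SE 0.0793). The call on Sprr3 ended without 14 of the 18 organoid libraries in turn, 6 of them among the 6 compared (highest adjusted p 0.21) and that on Pkp2 without KO-labelled replicate 1, 2 or 3 or HET-labelled replicate 2 or 3 (highest adjusted p 0.168), and both also under length offsets and with no low-count filter.

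**Figure D4:**
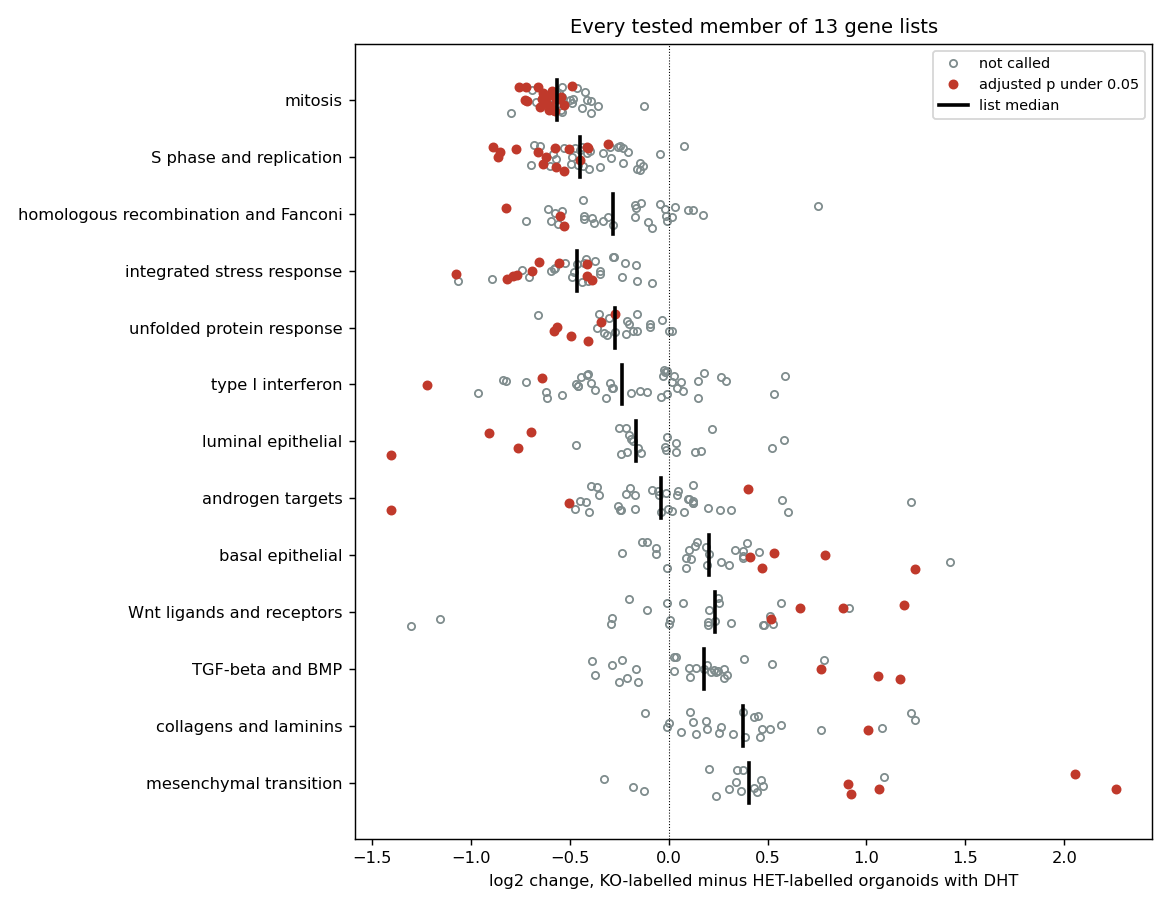
Log2 change of KO-labelled minus HET-labelled organoids with DHT for every tested member of 13 gene lists. Filled points have an adjusted p under 0.05 in edgeR, open points do not, and vertical bars are list medians; the medians run from -0.57 for mitosis to 0.40 for the mesenchymal list.

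Genes of the androgen axis gave few calls, and 0 of 5 tested steroid receptor genes were called by edgeR, with 1 at an unadjusted p under 0.05 and 1 by DESeq2. The glucocorticoid receptor Nr3c1 changed by 0.04 (SE 0.153) and the estrogen receptor Esr1 by 0.37 (SE 0.105, adjusted p = 0.066), and Pgr was read too little to test. Of 39 androgen-induced genes tested, 1 was higher and 2 were lower, with a median log2 change of -0.04. Over all genes tested, 1.79% were called higher and 1.75% lower. Ncapd3, a condensin subunit, had 21.7, 23.3 and 21.9 CPM in KO-labelled and 31, 32.7 and 31.2 CPM in HET-labelled libraries (log2 -0.50, SE 0.0957, edgeR adjusted p = 0.00709), and Spdef was the other lower gene. Herc3, a ubiquitin ligase, was higher (log2 0.40, SE 0.0997), a call that ended without 8 of the 18 organoid libraries in turn, 5 of them among the 6 compared (highest adjusted p 0.171) and with no low-count filter, and both Ncapd3 and Herc3 were lost under length offsets. The classical targets Fkbp5 (log2 -0.24, adjusted p = 0.501), a co-chaperone of steroid receptors, and Tmprss2 (-0.35, 0.134), a membrane protease, did not pass.

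Of the prostate secretory genes 17 were tested, 2 were higher and 1 was lower, where 1.79% of all genes tested were called higher and 1.75% lower. Pigr, which carries immunoglobulin A across epithelium, had 308, 328 and 316 CPM in KO-labelled libraries, against 459, 503 and 435 CPM in HET-labelled ones (log2 -0.55, SE 0.0844, edgeR adjusted p = 0.00144). Acpp, prostatic acid phosphatase, had 176, 199 and 172 CPM in KO-labelled and 109, 135 and 123 CPM in HET-labelled libraries (log2 0.58, SE 0.118). The complement protease C1s1 had 0.609, 0.857 and 0.869 CPM in KO-labelled and 0.14, 0.268 and 0.195 CPM in HET-labelled libraries (log2 1.95, SE 0.318). The labels did not overlap in these genes, as in all 546 calls. The call on Acpp ended without KO-labelled replicate 2 or HET-labelled replicate 1 or 3 (highest adjusted p 0.074).

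The mesenchymal list, to which Sparc and Vim belong, gave 5 higher and 0 lower of 20 tested members, with a median log2 change of 0.40, where 1.79% of all genes tested were called higher. Tnc, the matrix glycoprotein tenascin C, had 333, 307 and 354 CPM in KO-labelled and 152, 141 and 182 CPM in HET-labelled libraries (log2 1.06, SE 0.109, edgeR adjusted p = 3.50e-05). Thbs1, thrombospondin 1, had 682, 625 and 803 CPM in KO-labelled and 320.3, 358 and 436 CPM in HET-labelled libraries (log2 0.92, SE 0.143). Fibronectin, encoded by Fn1, was the fifth (log2 0.91, adjusted p = 0.00221). Of the transcription factors that drive epithelial-mesenchymal transition, none tested passed, with Snai2 at log2 0.38 (adjusted p = 0.674), Zeb2 at 0.35 (0.905) and Twist2 at -0.33 (0.666). DESeq2 called 8 higher and 0 lower in the list.

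Among 25 tested collagens and laminins, 1 was higher and 0 were lower by edgeR and 6 were higher by DESeq2, and 23 had a change above 0 (median log2 0.38). Col4a2, a basement membrane collagen, had 57.9, 60.9 and 63 CPM in KO-labelled and 26.2, 36.9 and 27.4 CPM in HET-labelled libraries (log2 1.01, SE 0.224), although its call ended without KO-labelled replicate 1, 2 or 3 or HET-labelled replicate 1 or 3 (highest adjusted p 0.0972). Matrix proteases and their inhibitors gave 4 higher and 0 lower of 27, where 1.79% of all genes tested were called higher. Adamts15, a secreted protease of matrix proteoglycans, had 4.54, 3.78 and 4.91 CPM in KO-labelled and 2.11, 1.63 and 1.73 CPM in HET-labelled libraries (log2 1.27, SE 0.225), and Adamts9 had 41.7, 41 and 36.4 CPM in KO-labelled and 27.9, 29.7 and 26.5 CPM in HET-labelled libraries (log2 0.50, SE 0.091). The inhibitors Timp3 (log2 0.84, SE 0.205) and Serpine2 (log2 0.44, SE 0.0967) were the other 2. The call on Timp3 ended without 7 of the 18 organoid libraries in turn, 5 of them among the 6 compared (highest adjusted p 0.16) and under length offsets, and that on Serpine2 without KO-labelled replicate 1, 2 or 3 or HET-labelled replicate 1 or 2 (highest adjusted p 0.117).

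Markers of stromal cells were mostly at or near 0, while a few moved with these genes. Of 10 fibroblast markers, Col1a2, Col3a1, Lum, Pdgfrb, Dpt and Col6a3 had fewer than 1 CPM in all 6 libraries and were not tested. Dcn, described above, was the only fibroblast marker called of 4 tested, where 3.54% of all genes tested were called. The whole fibroblast list summed to 45.7, 50.7 and 41.7 CPM in KO-labelled and 24.2, 26.3 and 21.4 CPM in HET-labelled libraries. Dcn made up most of that difference. Fbln1, the other fibroblast marker read above 1 CPM, had 12.2, 12.2 and 13.3 CPM in KO-labelled and 13.5, 13.6 and 12.3 CPM in HET-labelled libraries (log2 -0.07). The smooth muscle actin Acta2 had 2.24, 3.31 and 4.06 CPM in KO-labelled and 0.749, 1.04 and 0.778 CPM in HET-labelled libraries (log2 1.90, SE 0.377, edgeR adjusted p = 0.00939), and the actin-binding gene Tagln had 1.48, 1.74 and 2.48 CPM in KO-labelled and 0.585, 0.776 and 0.608 CPM in HET-labelled libraries (log2 1.53, SE 0.36). These were the 2 calls of 4 smooth muscle markers tested. Myh11 (log2 0.505, edgeR adjusted p = 0.772) and Cnn1 (log2 1.45, edgeR adjusted p = 0.599) did not pass. Des was at 0 in all 6 libraries, and the 7 smooth muscle markers summed to 3.87, 5.66 and 7.01 CPM in KO-labelled and 1.61, 1.98 and 1.58 CPM in HET-labelled libraries. Their part in the rise of the matrix genes was not tested. The call on Acta2 ended without KO-labelled replicate 3 or HET-labelled replicate 1 (highest adjusted p 0.055) and that on Tagln without KO-labelled replicate 2 or 3 or HET-labelled replicate 1, 2 or 3 (highest adjusted p 0.142). Endothelial Cdh5 and Emcn, and the leukocyte genes Adgre1, Cd3e and Lyz2, were at 0 in all 6 libraries, and 0 of 3 endothelial and 0 of 4 leukocyte markers tested were called by edgeR, with 0 and 1 at an unadjusted p under 0.05 and 0 and 1 by DESeq2. The leukocyte list holds Cd68 and Cd14, which were read at 49.7, 44.3 and 47.9 CPM and 126, 114 and 145 CPM in KO-labelled and at 72.5, 67 and 75.9 CPM and 154, 135 and 141 CPM in HET-labelled libraries. Among 5 tested neuroendocrine markers Ncam1 was called, and 0 of 8 seminal vesicle markers had enough reads to be tested.

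Growth factor pathways gave scattered calls, mostly rises. Wnt ligands and receptors gave 4 higher and 0 lower of 27, with a median log2 change of 0.23, where 1.79% of all genes tested were called higher. The receptor Fzd6 had 94, 87.7 and 87.7 CPM in KO-labelled and 64.1, 61.6 and 62.4 CPM in HET-labelled libraries (log2 0.52, SE 0.0723, edgeR adjusted p = 6.68e-04), and the ligand Wnt5a had 28.1, 26.8 and 30.3 CPM in KO-labelled and 16.2, 15.7 and 21.9 CPM in HET-labelled libraries (log2 0.66, SE 0.127). The R-spondin receptor Lgr6 (log2 0.88, SE 0.156) and the Wnt5a receptor Ror1 (log2 1.19, SE 0.226) were the other 2. Of 19 Wnt target genes only the Wnt inhibitor Apcdd1 was called (log2 0.53, SE 0.104). Length offsets ended the calls on Wnt5a and Lgr6, and that on Ror1 ended without KO-labelled replicate 3 (adjusted p 0.0538) and that on Apcdd1 without KO-labelled replicate 1 (adjusted p 0.0567).

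The TGF-beta and BMP list gave 3 higher and 0 lower of 29, with the receptor inhibitor A83-01 in the medium of both groups. Over all genes tested, 1.79% were called higher and 1.75% lower. Tgfb3 had 18.8, 16.9 and 16.4 CPM in KO-labelled and 10.9, 9.45 and 10.1 CPM in HET-labelled libraries (log2 0.77, SE 0.0984, edgeR adjusted p = 2.75e-04), and Tgfb2 had 14, 10.9 and 14 CPM in KO-labelled and 5.26, 5.03 and 8.39 CPM in HET-labelled libraries (log2 1.06, SE 0.255). The secreted gene Fstl1 was low, at 1.65, 1.64 and 1.62 CPM in KO-labelled and 0.819, 0.722 and 0.632 CPM in HET-labelled libraries (log2 1.17, SE 0.238). Igfbp5, which binds insulin-like growth factors, was the 1 call among 17 genes of that axis, with 74.3, 95.4 and 69.6 CPM in KO-labelled and 28.9, 48.2 and 30.6 CPM in HET-labelled libraries (log2 1.15, SE 0.214). Among MAPK feedback genes the phosphatase Dusp1 was lower, with 27.4, 27.4 and 29.3 CPM in KO-labelled and 38.5, 53.8 and 64 CPM in HET-labelled libraries (log2 -0.89, SE 0.175), and Spred3 was higher (log2 0.89, SE 0.17), of 28 tested. The EGF receptor inhibitor Errfi1 was the 1 call of 16 EGF family genes (log2 -0.46, SE 0.0931). Gas1, a Hedgehog co-receptor, was the 1 call of 8 tested Hedgehog genes (log2 0.61, SE 0.157), and Jag1 was the 1 call of 18 Notch genes. Calls ended for Tgfb2 without KO-labelled replicate 1 or 3 or HET-labelled replicate 1 or 2 (highest adjusted p 0.163), for Fstl1 without HET-labelled replicate 3 (adjusted p 0.0575), for Spred3 without KO-labelled replicate 1 (adjusted p 0.053) and for Errfi1 without KO-labelled replicate 1 or 3 or HET-labelled replicate 3 (highest adjusted p 0.0828). The call on Gas1 ended without 12 of the 18 organoid libraries in turn, 5 of them among the 6 compared (highest adjusted p 0.216), with no low-count filter, with the 2 compared groups alone and with the 9 libraries with DHT alone, and length offsets ended those on Fstl1, Spred3 and Gas1.

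Immune lists held few calls. Interferon-stimulated genes gave 2 lower and 0 higher of 42, with a median log2 change of -0.24. Over all genes tested, 1.75% were called lower and 1.79% higher. Oas2, which senses double-stranded RNA, had 16, 11.3 and 14.1 CPM in KO-labelled and 33, 33.6 and 30.2 CPM in HET-labelled libraries (log2 -1.22, SE 0.191, edgeR adjusted p = 0.00172), and the regulator Irf7 had 53.5, 41.3 and 53.2 CPM in KO-labelled and 85.6, 83.6 and 62.1 CPM in HET-labelled libraries (log2 -0.64, SE 0.168). Isg15 (log2 -0.46, adjusted p = 0.614) and Ifit1 (-0.19, 0.804) did not pass. Genes of the cGAS-STING route gave 0 calls of 15 in edgeR, 3 at an unadjusted p under 0.05 and 2 in DESeq2, with the STING gene Tmem173 at log2 -0.36 (SE 0.148, adjusted p = 0.257). The class I gene H2-Q7, which has close relatives in its cluster, was the 1 call of 20 antigen presentation genes (log2 -0.80, SE 0.181). Of 33 chemokine and NF-kB genes the inhibitor Nfkbia (log2 -0.59, SE 0.146) and the lipopolysaccharide-binding gene Lbp (log2 -0.59, SE 0.146) were lower and Csf1 (log2 0.43, SE 0.113) was higher. Oas2 kept its call without each library in turn. The call on Irf7 ended without 12 of the 18 organoid libraries in turn, 5 of them among the 6 compared (highest adjusted p 0.202) and that on Csf1 without 14 of the 18 organoid libraries in turn, 6 of them among the 6 compared (highest adjusted p 0.23). The call on H2-Q7 ended without KO-labelled replicate 1 or 3 or HET-labelled replicate 2 or 3 (highest adjusted p 0.114), that on Nfkbia without KO-labelled replicate 1 or 3 or HET-labelled replicate 2 or 3 (highest adjusted p 0.181) and that on Lbp without KO-labelled replicate 1, 2 or 3, HET-labelled replicate 1 or 2 or WT-labelled replicate 2 (highest adjusted p 0.222). The calls on Irf7, Lbp and Csf1 also ended with no low-count filter, that on Irf7 with the replicate block, and those on H2-Q7, Lbp and Csf1 with length offsets.

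Metabolic lists held few calls. Hypoxia and glycolysis genes gave 3 lower and 0 higher of 33, with a median log2 change of -0.23. Over all genes tested, 1.75% were called lower and 1.79% higher. The secreted peptide Adm had 50.3, 78.6 and 59.8 CPM in KO-labelled and 88.9, 141 and 148 CPM in HET-labelled libraries (log2 -1.0, SE 0.231, edgeR adjusted p = 0.0234), and the glucose transporter Slc2a1 had 197, 236 and 208 CPM in KO-labelled and 266, 334 and 329 CPM in HET-labelled libraries (log2 -0.53, SE 0.133). The other was Ankrd37 (log2 -0.63, SE 0.144), an ankyrin repeat gene induced by hypoxia. Calls ended for Adm without KO-labelled replicate 1 or 3 or HET-labelled replicate 2 or 3 (highest adjusted p 0.142), for Slc2a1 without KO-labelled replicate 1 or 3 or HET-labelled replicate 2 or 3 (highest adjusted p 0.173) and with no low-count filter, and for Ankrd37 without KO-labelled replicate 1 or 3 or HET-labelled replicate 2 (highest adjusted p 0.139) and under length offsets. Nuclear genes of oxidative phosphorylation gave 0 calls of 46 by edgeR, 6 at an unadjusted p under 0.05 and 1 by DESeq2, and all 46 changes were below 0 (median -0.24). The 13 genes of the mitochondrial genome gave 0 calls in either tool and 0 at an unadjusted p under 0.05, with a median of 0.22. In the cholesterol list Hsd17b7 was the 1 call of 30 (log2 0.57, SE 0.127), which ended without KO-labelled replicate 1, 2 or 3 or HET-labelled replicate 1 or 2 (highest adjusted p 0.095) and under length offsets. In the retinoid list of 18 the retinoic acid carrier Crabp2 was higher, with 14.7, 17.1 and 15.9 CPM in KO-labelled and 9.41, 9.61 and 9.07 CPM in HET-labelled libraries (log2 0.77, SE 0.158), a call that ended without KO-labelled replicate 2 or 3 or HET-labelled replicate 1 or 3 (highest adjusted p 0.0618). With edgeR, NRF2 targets gave 0 calls of 32, Hox genes 0 of 26 and imprinted genes 0 of 14. The counts at an unadjusted p under 0.05 were 7, 3 and 1 for these lists, and DESeq2 called 3, 2 and 0.

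Without DHT the same 2 labels gave 450 calls (2.92% of genes tested), 209 higher and 241 lower in KO-labelled organoids. These libraries are separate from those with DHT, although both enter 1 fit. Of the genes called with DHT, 161 were also called higher and 186 also called lower without it, and 0 were called in opposite directions. The 347 shared genes are 63.55% of the calls with DHT and 77.11% of those without. All 546 genes called with DHT had the same sign without it, against 71.98% of all genes tested. Sparc had 104, 109 and 103 CPM in KO-labelled and 22.9, 22.5 and 22.1 CPM in HET-labelled libraries without DHT (log2 2.23), and Kpna2 had 2.56, 2.42 and 2.59 CPM in KO-labelled and 53.1, 72.2 and 64.8 CPM in HET-labelled libraries (-4.65). Aurka had 25.6, 24.8 and 25.6 CPM in KO-labelled and 38.8, 40.2 and 40.9 CPM in HET-labelled libraries without DHT (log2 -0.66). The differences for these 3 genes were thus present in both media and of like size.

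The 5 lists given here had medians of the same sign in both media, which was not so for every list. Where 1.56% of all genes tested were called lower without DHT and 1.35% higher, mitosis gave 18 lower of 42 (median log2 -0.52), S phase 14 lower of 47 (-0.41), and the integrated stress response 7 lower of 35 (-0.36). The mesenchymal list gave 6 higher of 20 (0.43) and the basal list 4 higher of 29 (0.23). A test of whether the KO minus HET difference itself changed with DHT called 0 genes in edgeR, with 151 at an unadjusted p under 0.05, and DESeq2 called 1, the predicted gene Gm10273. A missed threshold does not show that the differences were equal. The count without DHT was 27 when those 2 groups were fitted alone and 800 with DESeq2, and it was 227 without KO-labelled replicate 2 and 229 without HET-labelled replicate 2 of that medium.

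**Figure D5:**
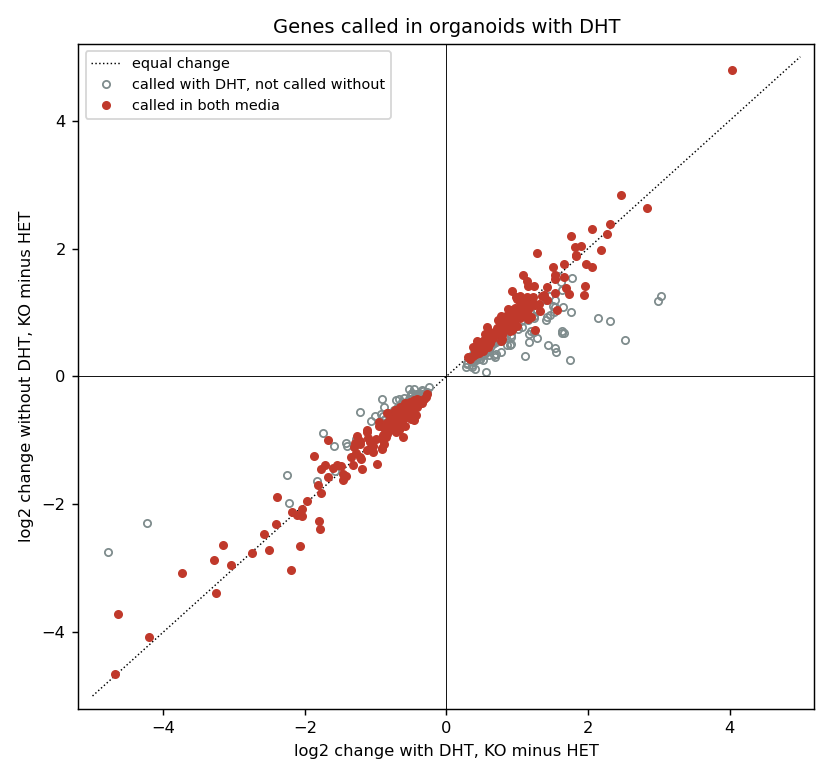
Log2 change of KO-labelled minus HET-labelled organoids with DHT (horizontal) and without DHT (vertical) for genes called with DHT. Filled points are called in both media, open points with DHT and not without, and the dotted line marks equal change; 515 of 546 genes are drawn, the other 31 lie beyond a log2 change of 5, and every point drawn has the same sign in both media.

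WT-labelled organoids with DHT gave a further level for each gene. KO minus WT gave 634 calls, 390 higher and 244 lower (4.11% of genes tested), and HET minus WT gave 1158, 622 higher and 536 lower (7.51%). These comparisons share the WT-labelled libraries, and each shares 1 group with KO minus HET, so they are set side by side only. WT-labelled replicate 1 was the shallowest library, with 11965815 reads of which Lars2 took 28.1%. In the mitosis list KO minus WT gave 0 calls of 42 with a median log2 change of 0.11, and HET minus WT gave 31 higher with a median of 0.71, where 4.03% of all genes tested were called higher and 3.47% lower in HET minus WT, and 2.53% higher and 1.58% lower in KO minus WT. WT-labelled replicate 3 decided part of these counts, since without it KO minus WT gave 394 calls and HET minus WT 720. KO minus WT also gave 408 and 406 without KO-labelled replicates 2 and 3, and HET minus WT 736 and 709 without HET-labelled replicates 2 and 3. In the S phase list the medians were -0.05 for KO minus WT, with 1 higher, and 0.37 for HET minus WT, with 15 higher of 47. In the stress response list they were -0.12, with 0 called, and 0.31, with 7 higher of 35. In the basal list of 29, KO minus WT gave 1 higher and 3 lower (median -0.03), and HET minus WT 0 higher and 8 lower (-0.17). The luminal list of 24 gave 0 higher and 1 lower (-0.14), and 2 higher and 1 lower (-0.04), in that order. For the mesenchymal list of 20 the counts were 3 higher and 1 lower (0.26), and 2 higher and 4 lower (-0.18).

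Single genes differed in which label stood apart. Sparc had 59.3, 76.6 and 72.9 CPM in WT-labelled libraries, and its log2 change was 0.26 for KO minus WT (adjusted p = 0.138) and -2.00 for HET minus WT (3.35e-09). Vim had 5.51, 9.04 and 8.68 CPM in WT-labelled libraries and was between the other labels, with 0.97 for KO minus WT (0.00437) and -1.08 for HET minus WT (0.00186). Wnt5a, Timp3 and Igfbp5 had their lowest levels in WT-labelled libraries, with 9.34, 10.5 and 9.91 CPM, 6.98, 6.99 and 8.94 CPM and 16.1, 26 and 21.9 CPM, and their log2 changes for KO minus WT were 1.51, 1.90 and 1.89. Gata2 ran the other way, with 8.66, 9.29 and 8.85 CPM in WT-labelled libraries and changes of -1.54 for KO minus WT and -0.63 for HET minus WT.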

How the data were processed

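The authors deposited, for every transcript, an estimated count and a TPM value (abundance scaled within the library), which Salmon gives per the file headers; version 0.13.1 is listed in the submitters' processing notes. The build listed there is the human hg38, whereas the transcript IDs in the files are mouse Ensembl IDs; the index, trimming and strand setting are not given in the sources used here. Estimated counts were summed per gene through the GENCODE M21 map (GRCm38) and rounded. The map lacked 922 of 116945 transcripts, which held 0.227% to 0.327% of reads and were left out of library sizes and tests. All CPM values were computed here from those sums, and the deposited TPM were not used in tests.

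Genes were filtered by edgeR's filterByExpr and tested with edgeR 4.0.16 (quasi-likelihood, TMM, R 4.3.3) on 18 organoid libraries in 6 groups of 3, with Benjamini-Hochberg adjustment over 15427 genes and a threshold of 0.05. A shared word is a 31-base word of a gene's most read transcript that is also found in a transcript of another gene. The 24 libraries held 11965815 to 58445041 estimated reads, which bound the precision of low values, and floors cover counting error only. On simulated counts for KO minus HET with DHT (15179 genes), 35% of genes changed 1.5-fold and 67% of those changed 2-fold were called, and 6 unchanged genes were.

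Named genes were Brca1, the tested steroid receptors, the 12 largest rises and 12 largest falls among called genes with at least 5 CPM in either label and no overlap, without predicted genes, the 5 lowest p-values, and per list up to 4 called members by p, or the 2 with the highest CPM. Further list members, including widely used markers that were not called, were chosen after their values were seen. The members and lists were chosen with earlier results of these data known. Without DHT, same-numbered KO-labelled and HET-labelled libraries deviated together (correlations 0.613, 0.231 and 0.691), so there the numbers may pair the samples. The main fit held no term for this, and a replicate block gave 532 calls without DHT in place of 450. Replicate 1 without DHT had 25233980 reads in KO-labelled and 29409564 in HET-labelled organoids, with 10.0% and 9.43% mitochondrial. The part of read number and quality in the joint deviation was not tested. DESeq2 1.42.0, other filters, length offsets, a replicate block and leaving out each library were tried as alternatives. Some named genes are not reported here.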

Additional observations from a re-analysis of the deposited data

How the results depend on the processing

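Of 101 called named genes, 49 kept their call under every setting tried and 0 changed sign. Without at least 1 of the 18 organoid libraries 46 lost the call, and 22 lost it with transcript length offsets, 13 with no low-count filter and 2 with the replicate block. The 546 calls of KO minus HET with DHT became 994 with DESeq2, which held 540 of them in the same direction, and 1238 with the compared groups alone (528 shared). They became 1049 without the 3 libraries with the fewest reads and 931 with the 9 libraries with DHT alone, both settings chosen after seeing the data. The cause of these differences was not tested. KO minus HET without DHT gave 800 with DESeq2, 27 with the compared groups alone and 274 with length offsets, in place of 450. The difference between media gave 1 with DESeq2 in place of 0. KO minus WT gave 1053 with the 9 libraries alone and 989 with DESeq2, and HET minus WT gave 1888 with the 9 libraries alone.

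The calls summed over all lists, 115, became 201 without the 3 smallest libraries, 189 with the 9 libraries, 186 with DESeq2 and 233 with the compared groups alone. In the same order, mitosis (20) gave 31, 34 and, with the compared groups alone, 36. S phase (15) gave 24, 24, 23 and 25, and 8 both with no low-count filter and with length offsets. The integrated stress response (10) gave 20, 22, 17 and 27. With DESeq2 the mesenchymal list (5) gave 8 and the basal list (5) gave 8, and the basal list gave 10 with the compared groups alone.

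Leaving out each of the 18 libraries gave 246 to 634 calls for KO minus HET with DHT, 227 to 476 without DHT, 0 each time for the difference between media, 394 to 744 for KO minus WT and 709 to 1316 for HET minus WT. It gave 59 to 130 calls over all lists, 12 to 24 for mitosis, 6 to 19 for S phase, 5 to 11 for the integrated stress response, 5 to 7 for the mesenchymal list and 3 to 5 for the basal list.

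With the replicate number as a block, KO minus HET gave 655 calls with DHT, 532 without DHT and 0 for the difference between media, KO minus WT gave 704 and HET minus WT 1333. With DHT, libraries with the same number did not deviate together (correlations 0.0161, 0.0127 and -0.234), so there they share only a number. Genes below 1 CPM in all 6 libraries, such as Sprr3 and C1s1, rest on few reads.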

Other observations

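In prostate tissue, with 2 libraries per label and no test, the copies that differed most between organoids did not follow the label. Ftl1-ps1 had 574 and 5.68 CPM in KO-labelled, 2.87 and 537 CPM in HET-labelled and 354 and 1.82 CPM in WT-labelled tissue. Ftl2-ps had 197 and 0.0418 CPM in KO-labelled, 0 and 143 CPM in HET-labelled and 107 and 0 CPM in WT-labelled tissue. Both pseudogenes were thus high in 1 library and near 0 in the other library of every label. Kpna2 had 0.95 and 28.5 CPM in KO-labelled, 30.5 and 39.9 CPM in HET-labelled and 97.7 and 51.4 CPM in WT-labelled tissue. Sparc had 222 and 285 CPM in KO-labelled, 132 and 228 CPM in HET-labelled and 334 and 320.5 CPM in WT-labelled tissue.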
